A study of Homo sapiens with 18 samples.

Results

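The comparison described here sets ETV6 knockout cells that were given ETV6 back against unedited cells that carried an empty vector, and asks which genes sat at the unedited level after add-back, which stayed away from it and which passed it. It contrasted 6 of the 18 libraries of the series, 3 of the rescued knockout (KO ETV6) and 3 of unedited empty-vector cells (unedited EV), chosen by the genotype and vector in their labels. The model was fitted to all 18 libraries, so the spread behind each p-value was estimated over all 6 groups. Every gene was examined, and 12262 of the 20833 gene identifiers in the table held enough reads to be tested. The cells were MEG-01, a human megakaryoblastic leukemia line (Meg01 in the labels). KO ETV6 cells carried the genotype label ETV6-KO and a lentivirus with wild-type ETV6, KO EV cells the same genotype and an empty lentivirus, unedited ETV6 cells the genotype label WT and the ETV6 lentivirus, and unedited EV cells the WT label and the empty lentivirus. KO R369W and unedited R369W cells, which carried the ETV6 p.R369W variant, entered that fit, and their values are given only where named. All groups were transduced leukemic cells harvested on day 3, with 3 libraries each, which the design text calls biological replicates.

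ETV6 belongs to the ETS family, whose members bind DNA around a GGAA core, and mostly acts as a repressor of transcription. It is needed for blood stem cells in the adult marrow and for late steps of megakaryocyte maturation, and germline variants in its DNA-binding region cause inherited low platelet counts with a risk of leukemia. Adding the gene back to a knockout line is a usual check of whether differences from the parental line can be undone by the missing protein.

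Both the genotype and the vector differ between KO ETV6 and unedited EV, so their parts in a difference cannot be told apart from this contrast alone. Values of KO EV and unedited ETV6 cells are given beside it for some genes only. The titles number the libraries 1, 2 and 4 in knockout cells and 2, 3 and 4 in unedited cells, and the sources used here do not say whether a number is a clone, a culture or a passage. The p-values therefore measure the spread between libraries, estimated over all groups of the series. Gene reads ran from 12801423 to 13073611 in KO ETV6 libraries and from 13149263 to 16041684 in unedited EV libraries. The unaligned share was 0.289% to 0.324% of the KO ETV6 libraries and 0.586% to 0.809% of the unedited EV libraries. It followed the vector, at 0.527% to 0.809% in all 6 empty-vector libraries and 0.279% to 0.349% in the other 12, so that it also separates KO ETV6 from KO EV, and its part in the results was not tested. On the first 2 principal components (43.3% and 19.6% of the variance) KO ETV6 replicate 2 lay at -1.65 and 33.2, apart from replicates 1 and 4 at 35.1 and 46.3 on the first. Apart from replicates 2 and 3 of unedited EV, at -51.1 and -43.1 on the first, lay unedited EV replicate 4, at -10.8 and -48.0. Replicate 4 of unedited ETV6 and of unedited R369W lay near it, at -14.9 and -5.98 on the first and -53.3 and -40.2 on the second. KO EV replicate 2 and KO R369W replicate 1 lay near KO ETV6 replicate 2, at 6.27 and 9.31 on the first component and 46.8 and 47.8 on the second.

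The megakaryoblast identity rested on part of the marker set. ITGA2B, the integrin αIIb chain of the platelet fibrinogen receptor, stood at 1054, 908 and 1066 CPM (counts per 1000000 gene reads, scaled by TMM) in KO ETV6 and 859, 990 and 1109 CPM in unedited EV libraries, with a log2 difference of 0.03 ± 0.15 (standard error, as throughout). The transcription factors GATA1 and NFE2 were expressed in every library, at 130 to 197 and 190 to 249 CPM in KO ETV6 and 180 to 242 and 212 to 251 CPM in unedited EV. FLI1, an ETS activator of megakaryocyte genes, stood at 133, 79.2 and 159 CPM in KO ETV6 and 51.0, 77.0 and 96.04 CPM in unedited EV. ITGB3, the chain that pairs with ITGA2B, spread widely, at 172, 43.2 and 132 CPM in KO ETV6 and 15.3, 29.4 and 80.9 CPM in unedited EV. The late platelet marker PF4 had 0 reads in all 6 libraries, and GP9, VWF and CD9 reached at most 1.79 CPM. GP1BA, a chain of the von Willebrand factor receptor, held 1.99 to 6.33 CPM in KO ETV6 and 3.02 to 4.78 CPM in unedited EV.

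Transcripts of the added gene stood far above the unedited level. ETV6 (ENSG00000139083, GRCh38 chromosome 12, 11649854 to 11895402, plus strand) stood at 1784, 2377 and 1748 CPM in KO ETV6 and 66.0, 77.8 and 145 CPM in unedited EV, a 20.4-fold difference (log2 4.35 ± 0.38, adjusted p = 2.67e-05, edgeR quasi-likelihood test with Benjamini-Hochberg adjustment, as below). Unedited cells with the same vector averaged 2440 ± 161 CPM (SD, n = 3), and the log2 difference of KO ETV6 from them was -0.31 (adjusted p = 0.681). KO EV cells still held ETV6 reads, 85.1 ± 40.7 CPM (SD, n = 3), with a log2 difference of -0.18 from unedited EV (adjusted p = 0.845). Counts over the gene thus neither show the edit nor separate vector transcripts from the cell's own. The protein was not measured in these files.

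In the rescued knockout, 568 of 12262 genes (4.63%) differed from unedited EV at an adjusted p under 0.05, 326 higher (2.66%) and 242 lower (1.97%). The rises were larger than the falls, with 198 of the higher and 65 of the lower genes past 2-fold. For 326 of the 326 higher and 241 of the 242 lower genes all 3 KO ETV6 libraries lay on one side of all 3 unedited EV libraries, an arrangement that 13.9% of all tested genes showed upward and 14.3% downward. The median log2 difference over all tested genes was 3.13e-06. Against unedited ETV6, KO ETV6 was called the same way for 165 of the 326 and 67 of the 242. That contrast called 223 genes higher and 87 lower. Unedited ETV6 was called the same way against unedited EV for 2 and 24 of them, of 2 higher and 35 lower calls. Both contrasts share libraries with the main one. WAS, SYK, NCF4 and SPRED2, among the 24, were not called between KO ETV6 and unedited ETV6. A fit of the 6 libraries alone called 190 genes, 182 of them among the 568. Leaving out the libraries that stood apart (KO ETV6 and KO EV replicate 2 and unedited EV replicate 4) left 430 called genes, 289 of them among the 568. Replicate 4 of unedited ETV6 and unedited R369W and replicate 1 of KO R369W, which lay near these, stayed in that fit. With single libraries left out the count was 224 without KO ETV6 replicate 1, 511 without KO ETV6 replicate 2, 258 without KO ETV6 replicate 4, 215 without unedited EV replicate 2, 283 without unedited EV replicate 3 and 330 without unedited EV replicate 4.

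To place the 568 genes, each gene was read against 2 further contrasts of the same fit. KO EV differed from unedited EV at 531 genes (4.33%), 406 higher (3.31%) and 125 lower (1.02%), and KO ETV6 differed from KO EV at 224 genes (1.83%), 31 higher (0.253%) and 193 lower (1.57%). These contrasts share libraries with the main one, and the classes that follow are descriptions with no test. Of the 531 genes, 77 counted as back: KO ETV6 did not differ from unedited EV and differed from KO EV against the knockout's direction. A further 229 stayed away, called in the same direction in KO ETV6 as in KO EV, and 7 overshot, called in the opposite direction. The other 218 were undecided, with neither the distance from unedited EV nor the return called. Another 332 genes differed in KO ETV6 and not in KO EV, 154 higher and 178 lower. Without the libraries standing apart, 36 genes counted as back, 172 stayed away upward and 59 downward, 2 overshot and 197 were called in KO ETV6 and not in KO EV. The class sizes rest on single libraries as well: those back numbered 49 without KO ETV6 replicate 2, 45 without KO EV replicate 1 and 43 without KO EV replicate 4. The genes away upward numbered 96 and 104 without KO ETV6 replicate 1 or 4, 109 without KO EV replicate 4 and 77 and 95 without unedited EV replicate 2 or 3. Those away downward numbered 17 to 33 without KO ETV6 replicate 1 or 4, KO EV replicate 1 or 4 or any 1 unedited EV library. The genes called in KO ETV6 and not in KO EV numbered 93 and 114 without KO ETV6 replicate 1 or 4 and 118, 154 and 175 without unedited EV replicate 2, 3 or 4. Overshot genes numbered 4 without KO EV replicate 4 or unedited EV replicate 3 and 3 without unedited EV replicate 2.

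The 2 knockout groups carry the same replicate numbers, and same-numbered libraries deviated together (correlations of 0.763, 0.847 and 0.831 across genes). With the replicate number as a block over all 18 libraries, 500 genes were called between KO ETV6 and KO EV and 149 counted as back, 67 of them among the 77. That block takes a number as the same in knockout and unedited cells, which the labels do not state. KO R369W replicate 1, which lay near replicate 2 of the other knockout groups, kept its own number in this and the next fit. With the number as a random block within the genotype, 610 were called and 147 were back, 71 of them among the 77. Under the fixed block LMTK3 counted as partly back, CD24 as back, IL1R1 as partly back, and WAS and SYK as overshot. Under the random block ITGB2, RAG2 and BIRC7 counted as back, PTCH1 and IL1R1 as partly back and WNT7A as undecided. Other named genes changed class too. SLFN11, PEG3, NOVA2, SHISAL1, SLC24A3, S1PR3, P2RY8, FYB1 and BRSK2 were then called in neither knockout group against unedited EV. BAHCC1, TLCD4, NLRC5, OAS3 and TNFAIP2 became undecided, and ENDOD1 was called in KO ETV6 and not in KO EV. With the fixed block GREB1L was undecided, and FUT9, ST6GALNAC5, HLA-C, TEK and PDIA6 counted as away.

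The away class was the largest decided one, and most of it lay above the unedited level. It held 172 genes higher and 57 lower in KO EV. The median log2 difference from unedited EV of the higher genes was 2.21 in KO ETV6 and 2.42 in KO EV, and of the lower genes -1.17 and -0.86. Among the higher genes 13 were partly back, meaning that KO ETV6 was also called below KO EV, and no lower gene was. ENDOD1, higher in both, and PLIN2, lower in both, were the 2 genes for which KO ETV6 was called further from unedited EV than KO EV was.

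CCND1, which encodes cyclin D1, the partner of CDK4 and CDK6 in G1, had the smallest adjusted p of the named genes (ENSG00000110092, chromosome 11, 69641087 to 69654474, plus strand). It stood at 155, 135 and 114 CPM in KO ETV6, 141, 101 and 102 CPM in KO EV and 9.00, 6.90 and 9.54 CPM in unedited EV. The add-back left it 15.8-fold above unedited EV (log2 3.99 ± 0.23, adjusted p = 2.56e-07), and the difference between KO ETV6 and KO EV was 0.23 on the log2 scale (adjusted p = 0.703). PLEK, encoding pleckstrin, a protein kinase C substrate of platelets, showed the same arrangement (chromosome 2, 68365173 to 68397453, plus strand). Its libraries held 482, 338 and 396 CPM in KO ETV6, 337, 277 and 307 CPM in KO EV and 66.0, 93.0 and 95.9 CPM in unedited EV (4.77-fold, log2 2.25 ± 0.19, adjusted p = 2.67e-05).

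Several of the highest genes in KO ETV6 were all but silent in unedited EV cells. SLFN11, a nuclear factor of the response to replication stress, stood at 53.6, 4.91 and 66.0 CPM in KO ETV6, with KO ETV6 replicate 2 far below the others, and had 1 read over the 3 unedited EV libraries. Its ratio of summed reads was 1784 (95% interval 320 to 70520, counting error only). Without unedited EV replicate 2 its adjusted p was 0.0618, against 0.00794 with all libraries. PEG3, an imprinted zinc finger gene, had 18.3, 2.30 and 9.97 CPM in KO ETV6 and no read in unedited EV, at least 146-fold higher taking 3 reads over the group (adjusted p = 0.00756). BAHCC1, a chromatin protein, was at least 73.8-fold higher, at 9.06, 3.38 and 3.13 CPM against no read (adjusted p = 0.00144). For NOVA2, a neuronal splicing regulator, the ratio was 358 (98.8 to 2965), with 23.5, 8.74 and 18.0 CPM in KO ETV6, 111, 38.8 and 88.3 CPM in KO EV and 2 reads in unedited EV, and KO ETV6 was called below KO EV (log2 -2.25, adjusted p = 0.0271). The remaining large rises included SHISAL1 (ratio 410, 73.2 to 16250), P2RY8, a G protein-coupled receptor (ratio 90.2, 24.6 to 751), and GREB1L and FGD5, whose calls were each lost in 5 of the 6 runs that left out 1 library (adjusted p up to 0.107 and 0.162). GREB1L kept its call without KO ETV6 replicate 4 and FGD5 without KO ETV6 replicate 2.

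The other named genes that stayed away upward encode receptors, an adaptor, a transporter and enzymes. S1PR3, a receptor for sphingosine 1-phosphate, stood at 29.5, 28.99 and 10.1 CPM in KO ETV6 and 0.227, 0.379 and 0.185 CPM in unedited EV (log2 6.41 ± 0.86, adjusted p = 0.000791). FYB1, an adaptor of T cells and platelets, had 89.3, 13.1 and 96.2 CPM in KO ETV6 and 0.605, 0.834 and 1.29 CPM in unedited EV (log2 6.14 ± 0.91, adjusted p = 0.00168), again with KO ETV6 replicate 2 low. SLC24A3, a sodium, calcium and potassium exchanger, had 7.09, 12.3 and 20.2 CPM in KO ETV6 and at most 0.227 CPM in unedited EV (adjusted p = 0.00019). The integrin β2 chain ITGB2 was partly back, at 21.6, 13.5 and 9.68 CPM in KO ETV6, 90.2, 40.3 and 37.5 CPM in KO EV and 0.529, 0.606 and 1.17 CPM in unedited EV (log2 4.23 ± 0.48, adjusted p = 0.000249). IGFBP5, a binding protein of insulin-like growth factors, was partly back as well, at 47.2, 40.1 and 69.1 CPM in KO ETV6, 144, 90.5 and 224 CPM in KO EV and 10.4, 5.53 and 7.01 CPM in unedited EV (log2 2.77 ± 0.33, adjusted p = 0.000346). ZDHHC3, a palmitoyltransferase, differed from unedited EV by 0.51 ± 0.11 in KO ETV6 (adjusted p = 0.0159) and by 1.95 in KO EV on the log2 scale, and the KO ETV6 call was lost without KO ETV6 replicate 1 or unedited EV replicate 2 or 4 (up to 0.0821). BRSK2, a kinase, differed by 5.61 ± 1.15 (adjusted p = 0.0124, up to 0.0700 without unedited EV replicate 2 or 3).

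Further higher away genes were picked after their values were seen. PTCH1, the Hedgehog receptor, had 22.0, 19.0 and 24.0 CPM in KO ETV6, 42.7, 35.5 and 48.0 CPM in KO EV and 1.59, 0.0758 and 0.308 CPM in unedited EV (log2 5.06 ± 0.63, adjusted p = 0.000512). IL1R1, the interleukin 1 receptor, had 49.4, 74.3 and 109 CPM in KO ETV6, 124, 149 and 201 CPM in KO EV and 4.17 to 9.47 CPM in unedited EV (log2 3.58 ± 0.40, adjusted p = 0.000249). In both genes no KO ETV6 library reached the unedited range.

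Genes that stayed below the unedited level were fewer. S1PR1, the sphingosine 1-phosphate receptor of lymphocytes and endothelium, stood at 1.74, 2.53 and 2.23 CPM in KO ETV6, 1.20, 1.29 and 1.38 CPM in KO EV and 21.2, 11.5 and 13.5 CPM in unedited EV (chromosome 1, 101236865 to 101243713, plus strand; 7.08-fold lower, log2 -2.83 ± 0.41, adjusted p = 0.00164). The 2 sphingosine 1-phosphate receptors named here thus lay on opposite sides of the unedited level, in value, in both knockout groups. UNC5B, a netrin receptor, had 0.755, 0.384 and 0.521 CPM in KO ETV6 and 17.5, 9.78 and 5.04 CPM in unedited EV (log2 -4.26 ± 0.66, adjusted p = 0.0022). Unedited ETV6 differed from unedited EV by -2.45 for UNC5B, not called (adjusted p = 0.154). RASGRP3, an exchange factor for Ras and Rap, had 3.09, 4.37 and 3.72 CPM in KO ETV6 and 12.8, 9.02 and 17.3 CPM in unedited EV (log2 -1.80 ± 0.34, adjusted p = 0.00744). CASZ1, a zinc finger factor, and FST, the activin antagonist follistatin, fell by 1.23 ± 0.18 and 2.23 ± 0.41 on the log2 scale (adjusted p = 0.00179 and 0.00666).

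Other large falls were less steady, and FUT9 and ST6GALNAC5 among them were not called in KO EV. COL23A1, a transmembrane collagen, and XIRP2, an actin-binding protein, fell by 3.81 ± 0.74 and 2.13 ± 0.41 on the log2 scale, and both calls were lost without KO ETV6 replicate 1 (adjusted p = 0.0555 and 0.0514). FUT9, a fucosyltransferase, had 0, 0.0767 and 2.23 CPM in KO ETV6 and 14.5, 16.2 and 56.4 CPM in unedited EV. Its call (adjusted p = 0.0485) held in 1 of the 6 runs with 1 library left out, that without KO ETV6 replicate 4, and those of DCAF4L2 and TLCD4 in 1 and 0 (DCAF4L2 without unedited EV replicate 4). KLF7, a zinc finger factor, and the sialyltransferase ST6GALNAC5 each lost the call in 4 runs, KO ETV6 replicates 1 and 4 and unedited EV replicate 2 among them for both (up to 0.153 and 0.130). SLFN14, an RNA-degrading schlafen linked to inherited low platelet counts, had 8.38, 8.21 and 10.9 CPM in KO ETV6 and 14.7, 13.6 and 14.9 CPM in unedited EV (log2 -0.66 ± 0.18, adjusted p = 0.0469), and kept its call without KO ETV6 replicate 4 alone of the 6.

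**Figure D1:**
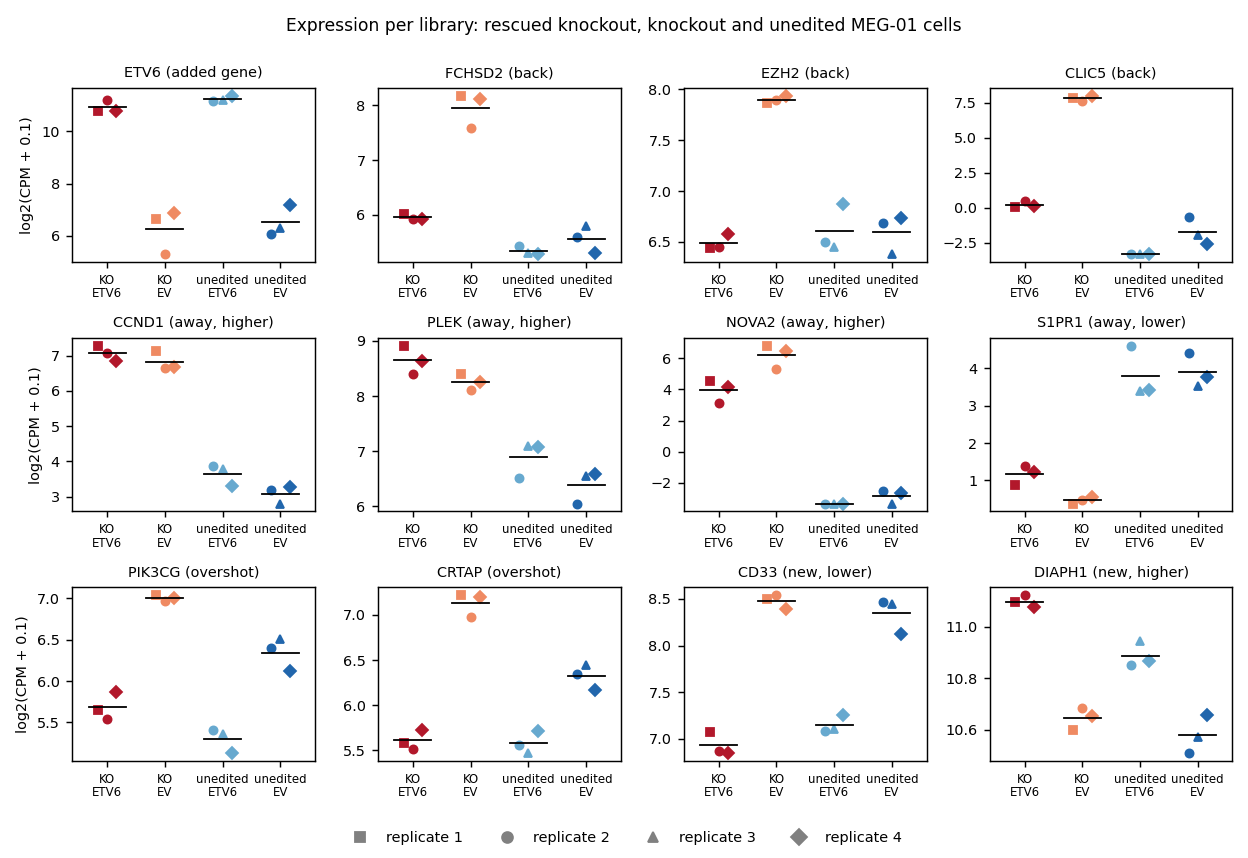
Level of 12 genes per library, as log2(CPM + 0.1) on the y axis, in KO ETV6, KO EV, unedited ETV6 and unedited EV cells, with 1 point per library shaped by its replicate number and a bar at the mean of each group. CCND1, PLEK and NOVA2 stay above unedited EV in KO ETV6, CD33 and PIK3CG lie below it, and for EZH2 all 3 KO ETV6 libraries lie within the unedited EV range.

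Genes that counted as back were mainly ones high in the knockout. The class held 69 genes higher and 8 lower in KO EV, and for 53 of the 77 the 95% interval of the KO ETV6 difference from unedited EV lay within 1 log2 unit of 0. FCHSD2, an endocytic F-BAR protein, had 64.8, 60.3 and 60.4 CPM in KO ETV6, 287, 193 and 277 CPM in KO EV and 48.3, 55.1 and 39.6 CPM in unedited EV (chromosome 11, 72836745 to 73142261, minus strand). Its log2 difference from unedited EV was 0.38 ± 0.14 in KO ETV6 (adjusted p = 0.127) and 2.41 in KO EV, with the 3 KO ETV6 libraries above the 3 unedited ones in value. EZH2, the methyltransferase of Polycomb complex 2, picked after its values were seen, had 86.5, 87.3 and 95.6 CPM in KO ETV6, 233, 237 and 244 CPM in KO EV and 103, 83.2 and 107 CPM in unedited EV. KO ETV6 and unedited EV overlapped for it, and the 95% interval of their log2 difference ran from -0.39 to 0.15. VAV1, an exchange factor for Rac, stood at 72.8, 72.3 and 77.0 CPM in KO ETV6, 233, 193 and 276 CPM in KO EV and 107, 141 and 87.6 CPM in unedited EV (-0.60 ± 0.21, adjusted p = 0.119). Its 3 KO ETV6 libraries lay below the 3 unedited EV ones in value. Unedited ETV6 was called below unedited EV for VAV1 (log2 -1.11, adjusted p = 0.0402).

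For some back genes the unedited level was too low to place the rescue closely. CLIC5, a chloride intracellular channel protein, had 0.906, 1.30 and 0.968 CPM in KO ETV6, 231, 196 and 250 CPM in KO EV and 0.529, 0.152 and 0.0615 CPM in unedited EV. The KO ETV6 and unedited EV levels rested on 42 and 10 reads, and the interval of their log2 difference ran from -0.12 to 4.37. LMTK3, a kinase, had 0.690 to 0.968 CPM in KO ETV6, 34.5 to 60.7 CPM in KO EV and 0.0615 to 0.152 CPM in unedited EV. MYT1, a neural zinc finger factor, had 0.0744 to 0.302 CPM in KO ETV6, 9.42 to 15.8 CPM in KO EV and 1 read in unedited EV. CD79A, a chain of the B cell receptor, had 0.453, 0.384 and 0.595 CPM in KO ETV6, 15.5, 10.4 and 9.42 CPM in KO EV and 0.227, 0.227 and 0.431 CPM in unedited EV.

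Of the 8 back genes that were low in the knockout, WNT7A, a Wnt ligand, had 2.79, 7.90 and 1.49 CPM in KO ETV6, 0.365, 0.457 and 0.153 CPM in KO EV and 8.01, 9.55 and 13.3 CPM in unedited EV. Every KO ETV6 library lay between the other 2 groups, and the difference from unedited EV was not called (-1.34 ± 0.49, adjusted p = 0.131). CTTN, the actin regulator cortactin, had 59.5, 67.9 and 42.5 CPM in KO ETV6, 17.3, 33.5 and 13.7 CPM in KO EV and 81.1, 52.3 and 67.4 CPM in unedited EV, overlapping with the last. OTUD5, a deubiquitinase, and FXR2, an RNA-binding protein, differed from unedited EV by 0.12 ± 0.08 and -0.03 ± 0.08 on the log2 scale.

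All 7 overshot genes were above unedited EV in the knockout and below it after add-back: PIK3CG, CRTAP, RNPEP, UBXN8, CD24, TESPA1 and ACSL5, of which the last 2 were named after their values were seen. PIK3CG, the catalytic subunit p110γ of a lipid kinase of blood cells (chromosome 7, 106865278 to 106907145, plus strand), stood at 49.96, 46.5 and 58.1 CPM in KO ETV6, 131, 125 and 129 CPM in KO EV and 84.7, 91.3 and 69.3 CPM in unedited EV. The KO ETV6 level was 1.59-fold below unedited EV (log2 -0.67 ± 0.11, adjusted p = 0.00249). CRTAP, a subunit of the collagen prolyl 3-hydroxylase complex (chromosome 3, 33113979 to 33147773, plus strand), had 47.8, 45.7 and 53.0 CPM in KO ETV6, 149, 126 and 147 CPM in KO EV and 81.4, 86.9 and 71.7 CPM in unedited EV (1.64-fold lower, adjusted p = 0.00294). The peptidase RNPEP and UBXN8, a UBX domain protein, were lower by 0.70 ± 0.13 and 0.61 ± 0.12 on the log2 scale (adjusted p = 0.00756 and 0.00729).

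CD24, a surface sialoglycoprotein of early B cells, had 102, 98.3 and 138 CPM in KO ETV6, 663, 621 and 604 CPM in KO EV and 330, 284 and 133 CPM in unedited EV. Unedited EV replicate 4 overlapped with KO ETV6 here, and of the 6 runs that left out 1 library the call (adjusted p = 0.0372) held in 1, that without unedited EV replicate 4 (0.00529). TESPA1, a signalling protein of T cell development, and ACSL5, an acyl-CoA synthetase, differed by -0.31 ± 0.06 and -0.39 ± 0.08 (adjusted p = 0.00753 and 0.0126), and the ACSL5 call was lost without KO ETV6 replicate 1 or unedited EV replicate 2 or 3 (up to 0.0700). In fits of the 6 libraries alone, with and without the replicate block, PIK3CG, RNPEP, TESPA1, ACSL5 and CD24 were not called, and without the libraries standing apart UBXN8 and TESPA1 were not. In unedited cells with the ETV6 vector, which share no library with KO ETV6, PIK3CG stood at 42.2, 40.8 and 34.8 CPM and CRTAP at 47.1, 44.2 and 52.4 CPM, all below the unedited EV libraries as well. Over the 7 genes the median log2 difference of unedited ETV6 from unedited EV was -0.74. The reference is the same unedited EV libraries that define the class, so a high level there would lower both differences.

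Genes called in KO ETV6 and not in KO EV included 67 for which KO ETV6 was also called against KO EV in the same direction, 13 higher and 54 lower. The 54 lower genes had a median log2 difference from unedited EV of -0.62 in KO ETV6, 0.08 in KO EV and -0.49 in unedited ETV6. RINL, an exchange factor for Rab proteins, had 5.21, 5.98 and 8.41 CPM in KO ETV6, 38.3, 42.8 and 33.2 CPM in KO EV, 5.41, 6.64 and 5.88 CPM in unedited ETV6 and 25.2, 29.03 and 25.5 CPM in unedited EV (chromosome 19, 38867834 to 38878279, minus strand; 4.07-fold lower, log2 -2.02 ± 0.18, adjusted p = 2.89e-05). Both groups that carried the ETV6 vector were low, and both empty-vector groups were high. CD33, a sialic acid-binding receptor of myeloid cells, followed the same order, with 135, 116 and 115 CPM in KO ETV6, 362, 372 and 335 CPM in KO EV, 135, 137 and 153 CPM in unedited ETV6 and 355, 348 and 278 CPM in unedited EV (2.68-fold lower, adjusted p = 2.02e-05). ITGAM, the integrin αM chain that pairs with ITGB2 in the myeloid receptor Mac-1, had 23.2, 31.7 and 26.9 CPM in KO ETV6, 81.5, 138 and 111 CPM in KO EV, 50.7, 45.6 and 36.4 CPM in unedited ETV6 and 117, 133 and 81.2 CPM in unedited EV (4.04-fold lower, log2 -2.02 ± 0.24, adjusted p = 0.000316). Its partner chain ITGB2 was called higher in KO ETV6, as given above.

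On the higher side, DIAPH1, a formin that nucleates actin and is tied to proplatelet formation, had 2187, 2228 and 2156 CPM in KO ETV6, 1551 to 1647 CPM in KO EV and 1457, 1520 and 1614 CPM in unedited EV (1.43-fold, log2 0.52 ± 0.06, adjusted p = 0.000249). The libraries of each of these groups were close together, and those of KO ETV6 lay above those of KO EV and unedited EV. DIAPH1 was also called higher in unedited ETV6 than in unedited EV (log2 0.31, adjusted p = 0.0397). Between KO ETV6 and unedited ETV6 it was not called (0.21, adjusted p = 0.0739). NR2F2, a nuclear receptor, picked after its values were seen, had 358, 408 and 346 CPM in KO ETV6, 174, 184 and 180 CPM in unedited EV and a KO EV difference of 0.09 (2.07-fold, adjusted p = 0.00168). NR4A2, an immediate-early nuclear receptor, had 39.2, 34.7 and 36.5 CPM in KO ETV6 and 22.7, 20.8 and 15.4 CPM in unedited EV (log2 0.91 ± 0.16, adjusted p = 0.00566). The other 265 genes of this group were not called between KO ETV6 and KO EV in this fit. Their median log2 difference between these groups was 0.33 for the 141 higher and -0.35 for the 124 lower genes. The choice of the group favours those signs. Under the random replicate block EGR3, DDX21 and IFIH1 among them were called between KO ETV6 and KO EV. PLIN2, a lipid droplet coat protein of the away class, had 38.1, 44.3 and 35.4 CPM in KO ETV6, 78.6, 107 and 69.7 CPM in KO EV, 85.2, 75.2 and 74.4 CPM in unedited ETV6 and 191, 154 and 120 CPM in unedited EV (3.95-fold lower, adjusted p = 0.00014). Its lowest levels of the 4 groups were those of KO ETV6.

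The promoters of 4 genes are shown, 1 from each of the overshot, KO ETV6-called, partly back and back sets, as 300 bases of RefSeq sequence (GRCh38.p14) around the annotated start, 5′ to 3′ on the gene's strand. They were chosen after their values and sequences were seen, 3 of them because they hold the motif searched, and of the 20 promoters of named genes that were searched one by one 4 held it. CRTAP, RNPEP and CD24 among the overshot genes and RINL and CD33 among those called lower in KO ETV6 held none. The overshot genes UBXN8, TESPA1 and ACSL5 were not among the 20. Genes on the chromosome that holds UBXN8 were left out of this search, which thus did not cover every named gene. OTUD5, a back gene whose promoter is not shown, held 2 matches. Capitals mark CGGAAG or its complement CTTCCG, the short core of the sequence that many ETS factors bind.
PIK3CG (overshot, chr7:106865229-106865528, plus strand): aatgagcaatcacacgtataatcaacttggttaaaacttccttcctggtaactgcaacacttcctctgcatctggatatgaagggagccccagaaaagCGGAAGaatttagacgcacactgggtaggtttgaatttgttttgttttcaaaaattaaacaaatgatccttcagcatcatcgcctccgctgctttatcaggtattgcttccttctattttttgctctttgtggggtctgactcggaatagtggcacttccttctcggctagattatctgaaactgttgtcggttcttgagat
ITGAM (called lower in KO ETV6, chr16:31259725-31260024, plus strand): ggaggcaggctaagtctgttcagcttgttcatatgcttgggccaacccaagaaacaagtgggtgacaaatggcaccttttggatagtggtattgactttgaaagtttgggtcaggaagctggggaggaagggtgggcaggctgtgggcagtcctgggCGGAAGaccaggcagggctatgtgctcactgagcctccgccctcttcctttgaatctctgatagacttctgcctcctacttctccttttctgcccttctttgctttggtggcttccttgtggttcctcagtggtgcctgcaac
BIRC7 (partly back, chr20:63235655-63235954, plus strand): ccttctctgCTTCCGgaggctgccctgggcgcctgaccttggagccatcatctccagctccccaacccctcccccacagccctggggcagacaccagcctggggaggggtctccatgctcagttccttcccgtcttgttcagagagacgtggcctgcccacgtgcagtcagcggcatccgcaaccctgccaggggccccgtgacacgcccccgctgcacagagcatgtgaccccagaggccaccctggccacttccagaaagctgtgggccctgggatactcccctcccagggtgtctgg
FCHSD2 (back, chr11:73142269-73142568, minus strand): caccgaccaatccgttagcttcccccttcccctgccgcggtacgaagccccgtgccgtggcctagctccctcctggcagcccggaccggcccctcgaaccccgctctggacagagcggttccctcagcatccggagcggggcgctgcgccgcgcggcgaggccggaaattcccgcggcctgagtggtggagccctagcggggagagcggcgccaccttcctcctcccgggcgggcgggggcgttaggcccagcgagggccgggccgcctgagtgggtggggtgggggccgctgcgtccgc
The first 3 held 1 match each and FCHSD2 held none.

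Over the classes, these short motifs gave no more than a description. RefSeq promoters matched 10007 of the 12262 tested genes, of which 33.8% held CGGAAG on either strand and 9.00% held the longer CCGGAAGT (complement ACTTCCGG), which contains it. Of the 126 promoters of genes that stayed away upward, 16.7% held the short and 0.794% the long form. For the 60 of genes back upward the shares were 20.0% and 3.33%, and for the 45 of genes lower with an add-back call 35.6% and 11.1%. Of 5 overshot promoters 1 held the short form. Over all 27305 promoters in the table the shares were 19.9% and 4.44%.

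The gene groups were read against the background of 2.66% of all tested genes called higher and 1.97% called lower. Of 22 tested red cell membrane genes 0 were called higher and 3 lower, with a median log2 difference of -0.79. Of the lower ones GYPB, a blood group sialoglycoprotein of a multigene family whose members may share reads, and ICAM4, a blood group adhesion protein, fell by 1.69 ± 0.31 and 0.99 ± 0.16 on the log2 scale (adjusted p = 0.00666 and 0.00228). Of the globin chains and the globin chaperone AHSP 0 of 9 were called, and all 9 had lower values in KO ETV6 (median -1.05). HBG1, a fetal globin, had 378, 688 and 264 CPM in KO ETV6 and 1167, 781 and 546 CPM in unedited EV (adjusted p = 0.328), and ALAS2, the first enzyme of heme synthesis in red cells, 9.73, 32.8 and 4.39 CPM against 134, 57.9 and 61.3 CPM (adjusted p = 0.132). In both genes KO ETV6 replicate 2 was the highest of its group. Of the heme synthesis and iron import genes 0 of 15 were called (median -0.25), and 12 had lower values.

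**Figure D2:**
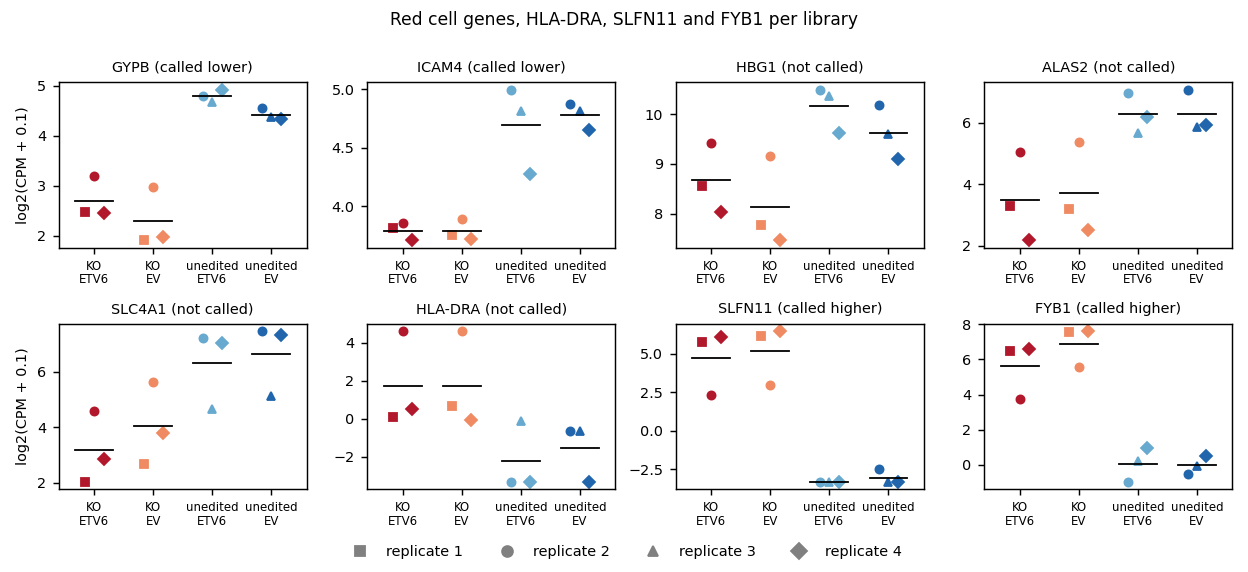
Level of 8 genes per library, as log2(CPM + 0.1) on the y axis, in KO ETV6, KO EV, unedited ETV6 and unedited EV cells, with 1 point per library shaped by its replicate number and a bar at the group mean. In both knockout groups replicate 2 is higher than replicates 1 and 4 for HBG1, ALAS2, SLC4A1 and HLA-DRA and lower for SLFN11 and FYB1.

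Each megakaryocyte and platelet list had 0 or 1 member called in each direction. Of the megakaryocyte and erythroid transcription factors 1 of 15 was higher and 1 lower (median -0.25): GFI1B, a repressor needed for both lineages, at 137, 150 and 118 CPM in KO ETV6 and 104, 98.9 and 108 CPM in unedited EV (adjusted p = 0.0487), and the ETS factor ERG, at 52.7, 39.6 and 58.8 CPM against 68.2, 82.8 and 73.3 CPM (adjusted p = 0.0397). Each of these 2 calls held in 1 of the 6 runs with 1 library left out, that without KO ETV6 replicate 4 (adjusted p at most 0.144 and 0.128 in the others). Platelet adhesion and activation receptors had 0 of 16 higher and 1 lower (median 0.24), the scavenger receptor CD36, at 20.0, 24.4 and 24.5 CPM in KO ETV6 and 83.2, 40.1 and 73.1 CPM in unedited EV. Its call (adjusted p = 0.0329) held without unedited EV replicate 3 and was lost in the other 5 such runs (up to 0.128). PLEK was the 1 platelet granule gene of 15 called, higher, with 0 lower (median -0.01). In the cytoskeleton and proplatelet list of 17, DIAPH1 was higher and WAS, the actin regulator mutated in Wiskott-Aldrich syndrome, lower (median -0.08). WAS stood at 44.8, 36.0 and 44.1 CPM in KO ETV6 and 56.2, 76.0 and 55.4 CPM in unedited EV (adjusted p = 0.0328), a call that held without unedited EV replicate 4 and was lost in the other 5 runs (up to 0.128).

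Genes of other blood lineages were called in both directions. Of 20 tested myeloid genes 1 was higher and 4 lower in KO ETV6 (median -0.03), against 5 higher and 1 lower in KO EV. The higher one was CEBPA, a granulocyte transcription factor, at 8.23, 9.82 and 12.9 CPM in KO ETV6 and 0.227, 0.834 and 1.78 CPM in unedited EV (log2 3.40 ± 0.50, adjusted p = 0.00168). The lower ones were CD33, ITGAM, the lysozyme gene LYZ (-1.22 ± 0.17, adjusted p = 0.00112) and NCF4, an oxidase subunit (-0.66 ± 0.10, adjusted p = 0.00202). Of 6 tested B-lymphoid genes 1 was higher and 1 lower in KO ETV6, and 4 higher and 0 lower in KO EV. RAG2, a recombinase subunit, was partly back, at 3.09, 1.61 and 2.01 CPM in KO ETV6, 10.3, 7.39 and 6.74 CPM in KO EV and 0.529, 0.909 and 0.308 CPM in unedited EV, a call lost in 4 runs, those without KO ETV6 replicate 1 or 4 or unedited EV replicate 2 or 4 (up to 0.127). A filter that keeps a gene through 1 high group chose the tested members of such lists, so their medians describe those members only.

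The immunoreceptor signalling list had 4 of 17 higher and 2 lower in KO ETV6 (median -0.04). PIK3CD, the p110δ catalytic subunit, was higher, at 24.4, 46.4 and 40.8 CPM in KO ETV6 and 9.15, 11.4 and 11.7 CPM in unedited EV (log2 1.79 ± 0.25, adjusted p = 0.00111), as were FYB1, the phospholipase PLCG2 and PIK3R5, a regulatory subunit of p110γ. The PLCG2 call was lost in all 6 runs with 1 library left out, and PIK3R5 kept its call without unedited EV replicate 3 alone (up to 0.118 and 0.162). The lower ones were PIK3CG and the kinase SYK, at 63.0, 60.1 and 60.7 CPM in KO ETV6 and 87.7, 93.8 and 73.3 CPM in unedited EV (adjusted p = 0.0417, and up to 0.139 in the 5 runs that lost it, all but that without unedited EV replicate 4). The mast cell and basophil list had 1 of 8 higher, the prostaglandin D synthase HPGDS, at 67.2, 18.8 and 75.8 CPM in KO ETV6 and 5.37, 13.3 and 8.98 CPM in unedited EV. Its call (adjusted p = 0.026) held without KO ETV6 replicate 2 and was lost in the other 5 runs (up to 0.116). The endothelial list had 3 of 9 lower, S1PR1, UNC5B and the angiopoietin receptor TEK, at 11.7, 10.4 and 15.9 CPM in KO ETV6 and 21.3, 28.4 and 29.4 CPM in unedited EV (adjusted p = 0.0113, or 0.0594 without KO ETV6 replicate 1). Against unedited ETV6, KO ETV6 was called lower for S1PR1 (log2 -2.8, adjusted p = 0.00198). UNC5B (-1.81, adjusted p = 0.154) and TEK (-0.37, adjusted p = 0.386) were not called there.

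The summed levels of these lists, over all listed genes, were not tested. The myeloid sum ran from 454 to 594 CPM in KO ETV6, 1011 to 1285 CPM in KO EV, 580 to 637 CPM in unedited ETV6 and 916 to 1283 CPM in unedited EV, without overlap between the groups with the ETV6 vector and those with the empty one. CD33 and ITGAM, both called lower in KO ETV6, are part of this sum. The B-lymphoid sum ran from 105 to 144 CPM in KO ETV6, 628 to 694 CPM in KO EV, 37.5 to 56.3 CPM in unedited ETV6 and 138 to 333 CPM in unedited EV, so that KO ETV6 and unedited EV overlapped. CD24 alone, with the levels given above, made up most of it in KO ETV6, KO EV and unedited EV. Of the 18 B-lymphoid genes, 10 had 0 reads in KO ETV6 and 11 in unedited EV. The mast cell and basophil sum ran from 1081 to 1568 CPM in KO ETV6 and 714 to 1026 CPM in unedited EV, without overlap, and the endothelial sum from 241 to 422 and 360 to 538 CPM, with overlap. The fibroblast list, with 2 genes tested, summed to 0.997 to 15.8 CPM in KO ETV6 and 0.454 to 4.74 CPM in unedited EV, and the epithelial list, with 3 tested, to 44.0 to 87.9 and 39.2 to 82.9 CPM, with 0 called in either. ELANE, AZU1, PRTN3 and MNDA among myeloid and CD22, MS4A1 and EBF1 among B-lymphoid markers had 0 reads in both groups. Bulk counts do not separate fewer cells of a kind from less RNA per cell, and the part of other cell types in these results was not tested.

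**Figure D3:**
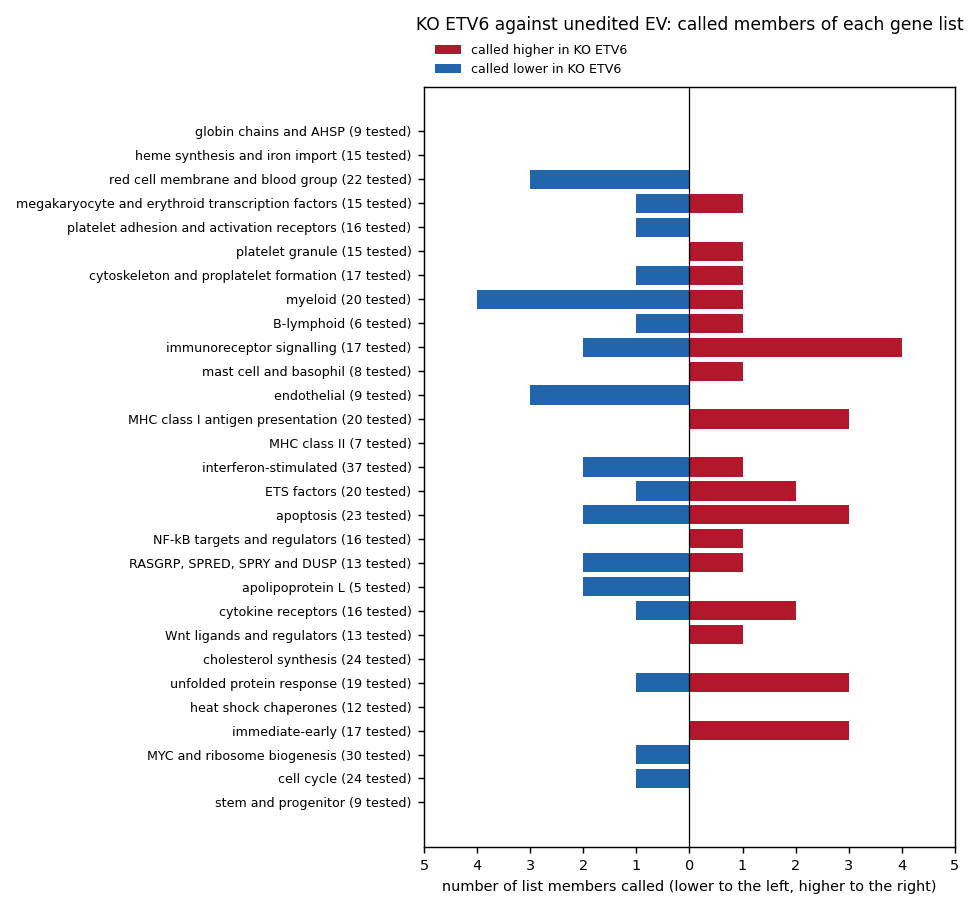
Number of genes called higher (right, red) and lower (left, blue) in KO ETV6 than in unedited EV in each gene list, with the number tested after its name. The immunoreceptor list has the most higher calls, 4 of 17, and the myeloid list the most lower calls, 4 of 20.

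Among antigen presentation genes, MHC class I had 3 of 20 higher and 0 lower (median 0.18): HLA-B, at 94.9, 67.04 and 95.5 CPM in KO ETV6 and 15.2, 26.8 and 28.9 CPM in unedited EV (log2 1.86 ± 0.32, adjusted p = 0.00385), HLA-C, and NLRC5, a regulator of class I genes. HLA genes resemble each other and may share reads. The HLA-C call was lost in 4 runs, without KO ETV6 replicate 1 or 4 or unedited EV replicate 2 or 3 (up to 0.136), and that of NLRC5 in 5, all but that without unedited EV replicate 3 (up to 0.170). MHC class II had 0 of 7 called (median 3.11), and HLA-DRA had 0.981, 24.2 and 1.34 CPM in KO ETV6 and 0.529, 0.531 and 0 CPM in unedited EV, so that KO ETV6 replicate 2 held most of the level. Of 37 interferon-stimulated genes 1 was higher, the oligoadenylate synthetase OAS3, and 2 lower, IFI27 and the RNA sensor IFIH1 (median 0.06), with calls lost in 5, 2 and 6 of the 6 runs (OAS3 kept without KO ETV6 replicate 2, IFI27 lost without KO ETV6 replicate 1 or 4, up to 0.157, 0.0769 and 0.104). Of 23 apoptosis genes 3 were higher and 2 lower (median 0.08). BAK1, an effector of mitochondrial permeabilization, had 37.6, 32.1 and 31.9 CPM in KO ETV6 and 15.0, 16.4 and 15.4 CPM in unedited EV (log2 1.12 ± 0.13, adjusted p = 0.000316). BIRC7, an inhibitor of apoptosis whose promoter is shown above, had 1.89, 1.23 and 0.670 CPM in KO ETV6, 67.3, 26.6 and 41.1 CPM in KO EV and 1 read in unedited EV (ratio 53.7, 9.21 to 2164). Its call (adjusted p = 0.0167) was lost without KO ETV6 replicate 1 or any 1 unedited EV library (up to 0.0745). XIAP, another inhibitor of apoptosis, fell by 0.48 ± 0.10 on the log2 scale (adjusted p = 0.0124, lost without KO ETV6 replicate 1 or 4 or unedited EV replicate 2 or 4, up to 0.0582), and BCL2 and the death receptor TNFRSF10A were the other 2 called, higher and lower by 0.47 and 0.51. BCL2 kept its call without KO ETV6 replicate 1 alone and TNFRSF10A without KO ETV6 replicate 2 or unedited EV replicate 4 (up to 0.118 and 0.172 in the other runs).

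The signalling lists had 0 to 2 members called in each direction. Of 20 ETS factors 2 were higher, ETV6 itself and ETS1, and ERG was lower (median -0.09). ETS1 had 12.4, 11.7 and 27.8 CPM in KO ETV6 and 1.28, 1.97 and 4.80 CPM in unedited EV (adjusted p = 0.0168, lost without KO ETV6 replicate 4 or unedited EV replicate 2 or 3, up to 0.0847). Of 16 NF-kB genes TNFAIP2 was higher and 0 lower (median 0.33, its call lost without KO ETV6 replicate 1 or unedited EV replicate 2 or 4, up to 0.132). The RASGRP, SPRED, SPRY and DUSP list of 13 had 1 higher, the phosphatase DUSP4, and 2 lower, RASGRP3 and SPRED2, an inhibitor of Ras signalling (median -0.16). DUSP4 kept its call without KO ETV6 replicate 2 and SPRED2 without unedited EV replicate 4, and each lost it in the other 5 runs (up to 0.166 and 0.127). Apolipoprotein L genes had 0 of 5 higher and 2 lower (median -0.89). APOL1, which lyses trypanosomes, had 25.0, 29.4 and 26.9 CPM in KO ETV6, 66.2, 88.6 and 70.5 CPM in KO EV and 60.4, 66.4 and 50.1 CPM in unedited EV (log2 -1.12 ± 0.15, adjusted p = 0.000766). APOL4 had 31.2, 49.9 and 48.6 CPM in KO ETV6 and 108, 93.9 and 73.4 CPM in unedited EV (adjusted p = 0.00612), and all 5 tested members had lower values.

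Of 16 cytokine receptors 2 were higher, the chemokine receptor CXCR4, partly back at 2.72, 3.22 and 3.35 CPM in KO ETV6, 20.9, 11.8 and 20.5 CPM in KO EV and 0.308 to 0.832 CPM in unedited EV (adjusted p = 0.0109), and IL3RA (adjusted p = 0.0196, up to 0.0983 without unedited EV replicate 2 or 3). TNFRSF1A was lower, with a call lost in each of the 6 runs (median of the list 0.32). Of 13 Wnt genes the antagonist DKK1 was higher and 0 lower (median 0.11), on 63 reads in KO ETV6 and 1 in unedited EV, with a call kept without KO ETV6 replicate 2 alone. The unfolded protein response list had 3 of 19 higher and 1 lower (median 0.21). HSPA5, the main chaperone of the endoplasmic reticulum, had 587, 518 and 662 CPM in KO ETV6 and 368, 370 and 272 CPM in unedited EV (log2 0.81 ± 0.20, adjusted p = 0.0317, kept without KO ETV6 replicate 2 alone, up to 0.126). PDIA6 and HYOU1 were also higher and SEL1L lower, and HYOU1 kept its call without KO ETV6 replicate 2 alone (up to 0.191). The SEL1L call was lost in all 6 runs and the PDIA6 call without KO ETV6 replicate 1 or 4 or unedited EV replicate 2 or 4 (up to 0.127 and 0.0765).

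Of 17 immediate-early genes 3 were higher and 0 lower (median 0.14), NR4A2, the kinase SGK1 (1.35 ± 0.27, adjusted p = 0.0119) and EGR3 (3.15 ± 0.80, adjusted p = 0.0375). The SGK1 call was lost without KO ETV6 replicate 1 or unedited EV replicate 3 or 4 (up to 0.0577), and EGR3 kept its call without KO ETV6 replicate 2 alone (up to 0.147). In the proliferation and biosynthesis lists the shares called were near those over all genes: 0 of 30 higher and 1 lower for MYC targets and ribosome biogenesis (DDX21, -0.29 ± 0.07, median of the list 0.00), 0 of 24 higher and 1 lower for the cell cycle (MCM7, -0.30 ± 0.07, median -0.08). The 2 calls were lost in 4 runs each, without KO ETV6 replicate 1 or 4 or unedited EV replicate 2 for both, without unedited EV replicate 4 for DDX21 and without unedited EV replicate 3 for MCM7 (up to 0.117 and 0.122). Cholesterol synthesis had 0 of 24 called and 20 higher in value (median 0.38), heat shock chaperones 0 of 12 called and 10 higher in value (median 0.36), and stem and progenitor genes 0 of 9 called (median -0.10).

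Genes picked in libraries outside the contrast were read in it last. KO R369W against unedited R369W shares no library with KO ETV6 against unedited EV, and called 513 genes (4.18%), 318 higher (2.59%) and 195 lower (1.59%). Its libraries carry the same title numbers as the contrasted ones, so the 2 pairs may stem from the same clones or cultures. Of the 318, 165 were also higher in KO ETV6 than in unedited EV, which is 51.9% of that list and 50.6% of the 326 genes higher in KO ETV6, beside 2.66% of all genes. Of the 195, 87 were also lower in KO ETV6, which is 44.6% of that list and 36.0% of the 242, beside 1.97% of all genes. No gene of either list was called in the opposite direction in KO ETV6. Over both directions 252 of the 513 (49.1%) were called the same way. With 1 contrasted library left out the share of the R369W calls ran from 26.4% (without unedited EV replicate 2) to 46.4% (without KO ETV6 replicate 2). The median log2 difference of KO ETV6 from unedited EV was 1.35 for the 318 genes and -0.56 for the 195. CCND1 differed by 4.18 in the R369W pair, while CRTAP differed by 0.32 and PIK3CG by -0.12, neither called there.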

How the data were processed

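The authors deposited a table of raw counts, whole reads per gene, with 1 column for each of 18 MEG-01 libraries. Per the submitters' processing notes, HISAT2, SAMtools and HTSeq and the GRCh38 build were used. For the counting, annotation and strand setting: not given in the sources used here. Per the labels' protocols, TRIzol was used for RNA and the TruSeq stranded mRNA kit for the libraries. The 5 HTSeq summary rows, 36.5% to 40.8% of the listed reads in the 6 libraries compared, were left out. A second deposited file of library totals was not used.

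Symbols came from a gene name table (20801 identifiers) and GENCODE release 29 (31 more), which also gave positions. R 4.3.3 and edgeR 4.0.16 were used. After filterByExpr with the group factor and TMM scaling, a quasi-likelihood model with 1 mean per group was fitted to all 18 libraries, without a replicate block. KO ETV6 and KO EV share replicate numbers 1, 2 and 4 in their titles, and same-numbered libraries deviated together, so blocked class counts are given beside the unblocked ones. Benjamini-Hochberg adjustment of two-sided p-values ran over 12262 genes, and adjusted p under 0.05 was a call. Dividing the log2 difference by the root of its F statistic gave the standard error. The smallest p of an exact permutation test here, with 3 libraries a group, is 0.1. A count of 0 allows up to 0.187 to 0.234 CPM in the 6 libraries, taking 3 reads. This limit and the 95% exact intervals of read ratios cover counting error only, since the reads carry no molecular identifiers and PCR copies are not independent.

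Genes named were ETV6, the 12 largest rises and 12 largest falls (called, mean log2 CPM of at least 1, groups not overlapping), the 4 with the smallest knockout p of each class and direction, up to 3 called members of each list, the markers, and those said to be picked after their values were seen. Members called in a list of 5 or fewer were named as well. A few genes that this rule gives are not reported here. The comparison, the gene lists and this rule were chosen with earlier results of these data known. The fitting script was tested on simulated counts. Alternatives were RLE factors, DESeq2 1.42.0, limma-voom (limma 3.58.1), other count filters, replicate blocks, the 6 libraries alone, a threshold of 0.01 and leaving out libraries.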

Additional observations from a re-analysis of the deposited data

How the results depend on the processing

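Called genes that were followed under the alternatives numbered 102, the called genes named in the text among them, and all 102 kept their direction wherever a value was given. Of these, 0 lost the call under DESeq2 and RLE factors, 0 of 97 under the stricter filter (at least 50 reads in 3 libraries), 13 without a filter, 6 with the replicate block, 25 under limma-voom, 27 under limma-voom with a random replicate block (consensus correlation 0.313), and 32 without the libraries standing apart, an alternative chosen after seeing the data. With the 6 libraries alone 44 of 98 lost it, and 21 of 98 with the replicate block as well, PIK3CG, RNPEP, TESPA1, ACSL5 and CD24 of the overshot genes among them in both. limma-voom and the random block both dropped the large rises SLFN11, PEG3, NOVA2, SHISAL1, SLC24A3, S1PR3, P2RY8 and FYB1, and the cause was not tested. Of the 568 calls, RLE factors kept 561 of 565, limma-voom 458 of 485, the unfiltered fit 432 of 436 and the stricter filter 513 of 537. DESeq2 called 1084 genes (581 higher, 503 lower) including all 568, with 124 back, 294 away upward, 127 away downward, 15 overshot, 648 called in KO ETV6 and not in KO EV, and 508 called the same way in the R369W pair, of 1010 called there by the same tool (252 of 513 in the reported fit). Only replicate numbers 2 and 4 occur in both groups, too few to take the numbers as pairs, although their same-number deviations correlated at 0.403 and 0.460 across genes, against -0.554 to 0.306 for other pairs. With the replicate number as a block the fit called 1438 genes (721 higher, 717 lower), 149 back, 324 away upward, 188 away downward, 16 overshot, 910 called in KO ETV6 and not in KO EV, and 794 called the same way in the R369W pair, of 1591 called there. The 6 libraries alone gave 190 calls (108 higher, 82 lower), and 1042 (528 and 514) with the replicate block, a fit added after seeing the data. The random replicate block gave 147 back. Without the libraries standing apart 36 were back, 2 overshot, and 197 were called in KO ETV6 and not in KO EV. At a threshold of 0.01, 40 were back, 73 away upward, 13 away downward, 2 overshot and 92 called in KO ETV6 and not in KO EV. Leaving out 1 library gave 215 to 511 calls (113 to 300 higher, 99 to 211 lower), 43 to 72 back, 77 to 181 away upward, 17 to 57 away downward, 3 to 7 overshot, 93 to 365 called in KO ETV6 and not in KO EV, and 117 to 227 called the same way in the R369W pair, of 432 to 489 called there. Genes not called changed sign around 0: GP1BA had a log2 difference of -0.0381 under limma-voom and -0.018 with the random block, and leaving out 1 library gave -0.315 to 0.423 for GP1BA, -0.0561 to 0.125 for ITGA2B, -0.0751 to 0.0204 for FXR2 and -0.195 to 0.0077 for NFE2. Genes with few reads in unedited EV are limited by depth, where a count of 0 allows up to 0.228 CPM.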
